A study of Rattus norvegicus with 12 samples.

Results

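The voltage-gated potassium channels of the Kv1 (Shaker) family and their beta subunits were followed in the inferior colliculus (IC), the auditory centre of the midbrain, of rats deafened in 1 ear. The set comprised 8 genes chosen by symbol, of 18166 genes measured: the pore-forming subunits Kcna1, Kcna2, Kcna3, Kcna4, Kcna5 and Kcna6, and the beta subunits Kcnab1 and Kcnab2. Each was read by 1 probe with a single gene symbol, so no choice between probes arose. The 12 arrays, 3 per group, held the left IC of single-sided deaf rats, the left IC of control rats, the right IC of single-sided deaf rats and the right IC of control rats. All animals were SD rats. The deaf rats had the right cochlea ablated and the controls had a sham operation that opened the skin behind the ear but left the bulla undrilled. The series design names 20 rats in each arm and a survival of 2 weeks. Neither pooling of rats nor a shared rat behind left and right arrays of one number is stated in the labels, so p-values measure only the spread between these samples, part of which may be technical.

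Kv1 channels are tetramers of alpha subunits with cytoplasmic beta subunits attached. They open near the resting potential and limit repetitive firing, and in auditory brainstem neurons they carry the low-threshold potassium current that sharpens spike timing. On myelinated axons they lie beside the nodes of Ranvier, held there by adhesion and scaffold proteins. Ascending auditory input to the IC is mostly crossed, so that the ablated right ear mainly feeds the left IC and the intact ear mainly feeds the right IC.

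The hippocampus is named in the title of the series and in the sample descriptions, which also speak of noise for the deaf arrays, whereas the sample titles, sources and tissue entries name the IC. All 9 listed markers of tectal identity were measured, and none had a group mean below the lower quartile of all array values (log2 3.78); their mean level was 6.87 to 7.12 in left deaf, 6.96 to 7.08 in left control, 6.89 to 7.02 in right deaf and 6.87 to 7.17 in right control arrays. Of 10 listed hippocampal and forebrain markers 9 were measured, at 5.39 to 5.41, 5.37 to 5.55, 5.39 to 5.54 and 5.57 to 5.69 in the same group order, and 1 of them, Neurod6, lay below the lower quartile in all 4 groups. Right control arrays stood apart in cerebellar markers, whose mean over 9 genes was 5.25 to 6.08 there and at most 5.09 on any other array. Barhl1 and Eomes did not share this, with right control means of 7.56 and 4.99 against left deaf means of 7.74 and 5.03. The other listed cerebellar genes had their highest group mean in right control arrays. Meningeal and fibroblast markers (9 of 9 measured) varied most between arrays of one group, from 5.88 to 7.37 over the 12 arrays, with none below the lower quartile.

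None of the 8 genes differed detectably between deaf and control rats on either side. With limma, 0 of 8 passed an adjusted p of 0.05 in the left IC and 0 of 8 in the right IC, and over all genes the share called was 0% in each. At an unadjusted p under 0.05 the count was again 0 of 8 on both sides, where 3.69% of all genes passed on the left and 4.31% on the right. Nor did the arrays of deaf and control rats separate for any of the 8 on either side, against 10.3% of all genes on the left and 7.48% on the right. The median difference was -0.0028 on the left and -0.0076 on the right over the 8 genes, and -0.0051 and 0.0014 over all genes. The intervals were narrow: the 95% intervals of the 8 left differences lay between a fold of 0.789 and 1.21, and those of the right differences between 0.821 and 1.22, so that all 8 excluded a 1.5-fold change of the measured signal in either direction on both sides. These intervals cover the spread between arrays, not the compression of array signals. Right control 3 carried the highest cerebellar marker level, and without it the 8 right differences lay between -0.13 (Kcnab1) and 0.087 (Kcna5), with limma adjusted p from 0.999 up. Kcnab1 had been at -0.048 with that array, and Kcnab2 changed sign, from 0.058 to -0.010. Leaving it out does not remove the cerebellar excess, since right control 1 and 2 (5.62 and 5.25) also exceeded every array of the other groups (at most 5.09).

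**Figure D1:**
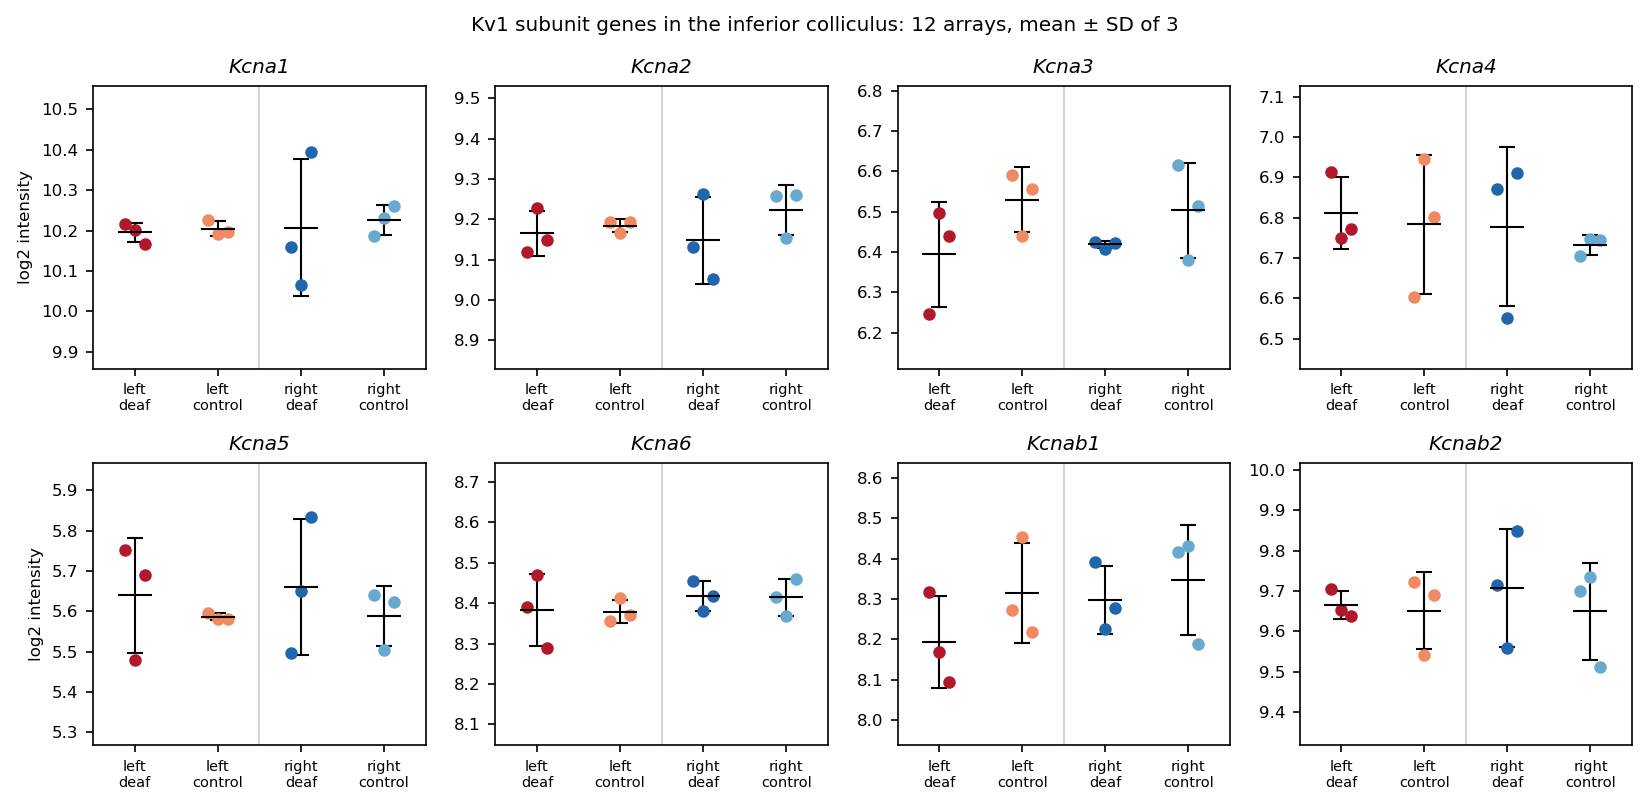
Log2 intensity of the 8 Kv1 genes on each of the 12 arrays, with 3 points, the mean (horizontal bar) and the SD (whiskers) per group; every panel spans the same 0.7 log2 units. Deaf and control points overlap on each side for all 8 genes, and the right deaf points of Kcna1 lie farther apart than those of any other group.

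Kcna1 (Entrez 24520) encodes a pore subunit of the low-threshold current, and its mutation can cause episodic ataxia. Its log2 level was 10.22, 10.20 and 10.17 in left deaf arrays, against 10.23, 10.19 and 10.20 in left control arrays. The 6 left values nearly coincided, and the difference was -0.0092 (SE 0.087, 95% interval -0.20 to 0.18; limma adjusted p = 1.00). In right deaf arrays it was 10.16, 10.07 and 10.40, against 10.19, 10.23 and 10.26 in right control arrays. Right deaf 2 was the lowest and right deaf 3 the highest of all 12 arrays, so this group spanned the others; the difference of the means was -0.019 (SE 0.087, 95% interval -0.21 to 0.17; limma adjusted p = 1.00). Without right deaf 3 it was -0.11 (limma unadjusted p = 0.182), and without right deaf 2 it was 0.052 (0.582).

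Kcna2 (Entrez 25468) encodes the partner of the Kcna1 subunit in many axonal channels. Levels were 9.12, 9.23 and 9.15 in left deaf arrays, against 9.19, 9.16 and 9.19 in left control arrays, a difference of -0.019 (SE 0.079, 95% interval -0.19 to 0.15; limma adjusted p = 1.00). Levels were 9.13, 9.26 and 9.05 in right deaf arrays, against 9.26, 9.15 and 9.26 in right control arrays, a difference of -0.075 (SE 0.079, 95% interval -0.25 to 0.097; limma adjusted p = 1.00). Here too right deaf 2 and 3 were the extremes of the 12 arrays, but in the opposite order to Kcna1, with right deaf 2 highest and right deaf 3 lowest.

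Kcna6 (Entrez 64358), which encodes a further neuronal delayed-rectifier subunit, was the steadiest of the 8. It ran from 8.29 to 8.47 in left deaf and from 8.36 to 8.41 in left control arrays, and from 8.38 to 8.45 in right deaf and from 8.37 to 8.46 in right control arrays. Its differences were 0.0035 on the left and 0.0038 on the right (SE 0.074 each; limma adjusted p = 1.00 for both). Its whole range of 0.179 over 12 arrays was smaller than that of all but 1.44% of genes.

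Kcna3 (Entrez 29731), which encodes a subunit known best from T lymphocytes and microglia and also present in neurons, had the largest left difference of the 8. Levels were 6.25, 6.50 and 6.44 in left deaf arrays, against 6.59, 6.44 and 6.56 in left control arrays. The lowest left deaf array was the lowest of all 12, while left deaf 2 lay above left control 2. The left difference was -0.13 (SE 0.091, 95% interval -0.33 to 0.065, limma unadjusted p = 0.167, adjusted p = 1.00). It was -0.061 without left deaf 1 and -0.19 without left deaf 2 (limma unadjusted p = 0.524 and 0.0934). Levels were 6.43, 6.41 and 6.42 in right deaf arrays, against 6.62, 6.38 and 6.51 in right control arrays, a difference of -0.084 (SE 0.091; limma adjusted p = 1.00). Averaged over both sides it was -0.11 (SE 0.065; limma unadjusted p = 0.116, adjusted p = 0.998). The 10 microglial and immune markers, measured in full, averaged 6.10 to 6.23 in left deaf and 5.98 to 6.28 in left control arrays, with 1 of them below the lower quartile in each group; their part in the Kcna3 values was not tested.

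Kcna4 (Entrez 25469) encodes the family's rapidly inactivating subunit. Its levels ran from 6.75 to 6.91 in left deaf and from 6.60 to 6.95 in left control arrays, and from 6.55 to 6.91 in right deaf and from 6.70 to 6.75 in right control arrays. The differences were 0.028 on the left and 0.045 on the right (SE 0.11 each; limma adjusted p = 1.00 for both). Kcna5 (Entrez 25470), known mainly from cardiac and smooth muscle, was the only member whose mean level lay below the median of all genes (5.62 against 5.97). It ran from 5.48 to 5.75 in left deaf and from 5.58 to 5.60 in left control arrays, and from 5.50 to 5.83 in right deaf and from 5.50 to 5.64 in right control arrays. Its differences were 0.053 and 0.071 (SE 0.10 each; limma adjusted p = 1.00 for both).

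Kcnab1 (Entrez 29737) encodes a beta subunit whose amino terminus can plug the open pore and speed inactivation. Levels were 8.32, 8.17 and 8.09 in left deaf arrays, against 8.27, 8.45 and 8.22 in left control arrays. Left deaf 3 was the lowest of the 12 arrays, but left deaf 1 lay above left control 1 and left control 3. The difference was -0.12 (SE 0.10, 95% interval -0.34 to 0.099, limma unadjusted p = 0.254, adjusted p = 1.00). It was -0.051 without left control 2 and -0.18 without left deaf 1 (limma unadjusted p = 0.643 and 0.124). In right deaf arrays the level was 8.23 to 8.39, against 8.19 to 8.43 in right control arrays, a difference of -0.048 (SE 0.10; limma adjusted p = 1.00).

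Kcnab2 (Entrez 29738) encodes the beta subunit that promotes surface and axonal targeting of Kv1 channels. Levels ran from 9.64 to 9.70 in left deaf and from 9.54 to 9.72 in left control arrays, a difference of 0.014 (SE 0.096; limma adjusted p = 1.00). Levels were 9.71, 9.56 and 9.85 in right deaf arrays, against 9.70, 9.74 and 9.51 in right control arrays, a difference of 0.058 (SE 0.096; limma adjusted p = 1.00). Right deaf 3 was again the highest of the 12 arrays, while right control 3, the array with the highest cerebellar marker level (6.08), was the lowest.

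**Figure D2:**
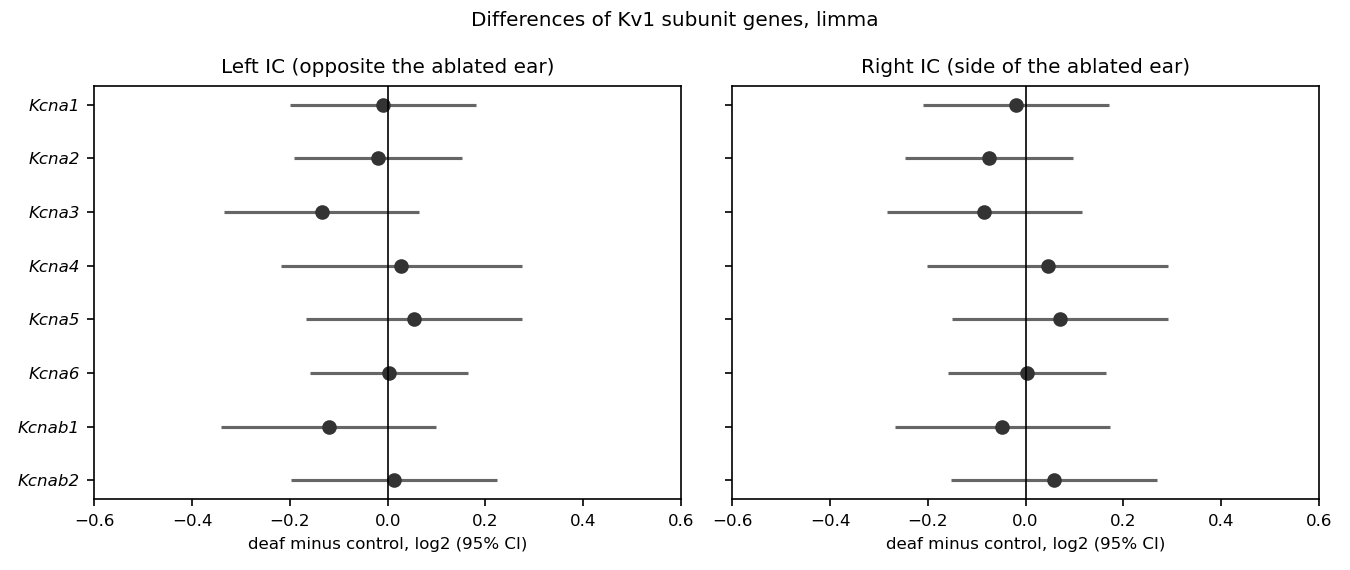
Deaf minus control difference (log2, horizontal axis) of each Kv1 gene in the left and the right IC, with points for the estimate and bars for its 95% interval from limma. All 16 bars cross 0, and none reaches beyond -0.34 or 0.29.

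The side of the brain made no detectable difference either. In controls, side cannot be told apart from the higher cerebellar marker levels of the right control arrays. Those arrays also enter the interaction of side and deafness and the average over both sides given below. Left minus right, the 8 differences lay between -0.10 and 0.034 in deaf rats and between -0.039 and 0.052 in control rats. At an unadjusted p under 0.05, 0 of 8 passed in deaf and 0 of 8 in control rats, where 3.34% and 4.95% of all genes passed. No gene of the 8 passed limma's adjusted threshold, against 0% of all genes in both comparisons, and arrays overlapped for all 8, against 8.31% of all genes not overlapping in deaf and 9.80% in control rats. The test of whether the deaf minus control difference varied with side gave interactions of -0.073 (Kcnab1) to 0.056 (Kcna2), with a smallest limma adjusted p of 1.00 and 0 of 8 at an unadjusted p under 0.05 (3.42% of all genes). Averaged over both sides, the deaf minus control differences lay between -0.11 (Kcna3) and 0.062 (Kcna5), again with 0 of 8 at an unadjusted p under 0.05 (4.53% of all genes) and overlapping arrays for all 8 (0.270% of all genes did not overlap).

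Ordered by group means, Kcna1 was highest in right control, then right deaf, left control and left deaf, and its 4 means spanned only 0.031. Kcna2 ran from right control through left control and left deaf to right deaf, over 0.075. Kcna3 ran from left control through right control and right deaf to left deaf (0.13), and Kcnab1 from right control through left control and right deaf to left deaf (0.15), the widest span of the 8. Kcna4 was highest in left deaf and lowest in right control (0.079), Kcna5 highest in right deaf and lowest in left control (0.074), Kcna6 highest in right deaf and lowest in left control (0.038), and Kcnab2 highest in right deaf and lowest in right control (0.058). No neighbours in these orders stood clear of their spread: the largest gap between neighbouring group means, counted in standard errors of a difference of 2 group means, was 1.04 for Kcnab1 and 0.922 for Kcna3, and at most 0.496 for the other 6 genes.

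Single arrays of one group also differed. For 5 of the 8 genes the widest group was right deaf, which held the widest range for 22.8% of all genes; right control did so for 1 of the 8, against 37.6% of all genes. The range of Kcna1 was 0.33 in right deaf arrays, against 0.047 in left deaf, 0.033 in left control and 0.075 in right control arrays. Among the right deaf arrays, Kcna1, Kcna4 and Kcnab2 were lowest on array 2 and highest on array 3, and Kcna2 ran the other way. Several marker lists differed between these arrays as well. In the order of arrays 1, 2 and 3, meningeal markers were at 6.69, 7.16 and 5.88, astrocyte markers (5 of 6 measured, none below the lower quartile) at 10.20, 10.13 and 10.30, and microglial and immune markers at 6.07, 6.26 and 6.20. Neuronal markers were at 10.00, 9.98 and 10.02, and tectal markers at 6.99, 6.89 and 7.02. Vessel markers (4 of 7 measured) were at 6.42, 6.64 and 6.28. The astrocyte, neuronal and tectal means thus had the same order as Kcna1, and the meningeal and vessel means the opposite one. The other measured lists had neither order. Of the astrocyte genes only Slc1a2 (10.99, 10.94 and 11.02) had the order of Kcna1. Gfap was highest on array 1, and Aqp4, Slc1a3 and Gja1 were lowest there. Genes of the neuronal and tectal lists differed in order too. The part of these lists in the Kv1 values was not tested. The residual SD within groups was 0.056 (Kcna6) to 0.14 (Kcna4), with a median of 0.15 over all genes and of 0.10 over the 5803 genes above the upper quartile of the array values (6.94).

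**Figure D3:**
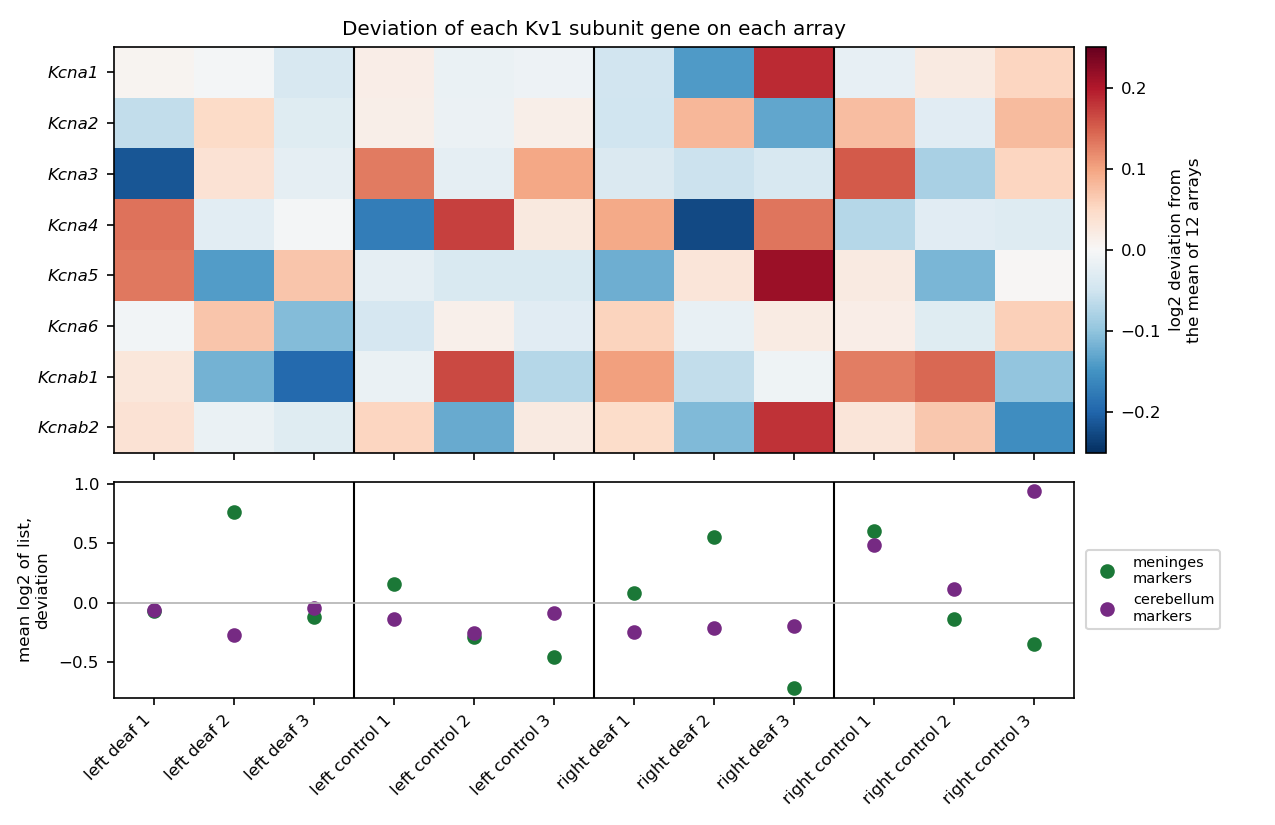
Top, log2 deviation of each Kv1 gene (rows) on each of the 12 arrays (columns, grouped by lines) from its own mean over the 12 arrays; red is above and blue below. Bottom, the mean log2 level of the meningeal and of the cerebellar markers on the same arrays, as deviation from their own means. Right deaf 2 and right deaf 3 show opposite colours for Kcna1, Kcna2, Kcna4 and Kcnab2, and opposite meningeal levels (7.16 and 5.88). Left deaf 2 and right control 1 had higher meningeal levels still (7.37 and 7.21). There Kcna1 was at 10.20 and 10.19 (mean of 12 arrays 10.21) and Kcna2 at 9.23 and 9.26 (9.18). Kcna4 was at 6.75 and 6.70 (6.78) and Kcnab2 at 9.65 and 9.70 (9.67).

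The 28 pairs of members were compared over the 12 arrays. Pearson's r was positive in 16 pairs and negative in 12, and ran from -0.71 to 0.56. By permutation test (100000 resamples, two-sided, adjusted over the 28 pairs), 0 pairs passed 0.05 after adjustment and 2 passed it before. Kcna2 and Kcna4 had r = -0.71 (permutation p = 0.00975, adjusted 0.227) and Spearman's rho = -0.76 (permutation p = 0.00634, adjusted 0.178); r was -0.73 within groups and -0.58 without right deaf 2 and 3, the arrays farthest from the median of Kcna2. Kcna2 and Kcnab2 had r = -0.67 (permutation p = 0.0162, adjusted 0.227) and rho = -0.61 (permutation p = 0.0398, adjusted 0.557), and r was -0.37 without the same arrays. Kcna1 and Kcna2, whose proteins often share a channel, had r = -0.56 (permutation p = 0.0534, adjusted 0.352) and rho = -0.23 (permutation p = 0.475, adjusted 0.973). That relation rests on right deaf 2 and 3, since r was 0.39 without them. Likewise Kcna1 and Kcnab2 had r = 0.56 (permutation p = 0.0574, adjusted 0.352; rho = 0.38, permutation p = 0.227, adjusted 0.973), and r was -0.28 without them.

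Some of the members share genomic neighbourhoods, but Kcna4, Kcnab1 and Kcnab2 have no other member as an adjacent protein-coding gene. In RefSeq's annotation of the rat assembly GRCr8, Kcna5, Kcna1 and Kcna6 are consecutive protein-coding genes, and so are Kcna3, Kcna2 and Kcna10, a further family member. Neighbours did not move together beyond adjustment. Kcna2 and Kcna3 had r = 0.55 (permutation p = 0.0628, adjusted 0.352; rho = 0.51, permutation p = 0.0935, adjusted 0.873), which was 0.78 without right deaf 2 and 3. Kcna1 and Kcna5 had r = 0.44, and Kcna1 and Kcna6 had r = 0.22, neither passing before adjustment. The genome build of the array is not named in these sources, and no positions are printed.

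Among the genes at or above the median level, those most like each member over the 12 arrays are named as a description only, since the best of 9081 correlations (9082 for Kcna5) over 12 arrays is high whatever the gene. For Kcna1 they were Frmd5 and Mgat5b (r = 0.86 each), for Kcna2 Supt4h1 (0.94) and Txndc5 (0.90), for Kcna3 Lgmn (0.94) and Trpt1 (0.91), and for Kcna4 Zcchc7 (0.86) and Fer (0.85). For Kcna5 they were Ttc21b (0.97) and Fam76b (0.86), for Kcna6 Btg1 (0.90) and Gnptg (0.89), for Kcnab1 Atp5f1b and Ralb (0.89 each), and for Kcnab2 Hook2 (0.89) and Thy1 (0.87). No member was among the closest genes of another.

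Genes whose proteins ligate, anchor or modulate Kv1 channels were read alongside. The values of 22 such genes were used here. With limma 0 of 22 passed the adjusted threshold in any of the 6 comparisons. At an unadjusted p under 0.05, 1 of 22 was lower in the left IC (Lgi2; 1.99% of all genes were lower) and 1 of 22 in the right IC (Kcne4; 2.19%), and 0 of 22 were higher on either side (1.70% and 2.12%). The median difference of the 22 was 0.012 on the left and -0.030 on the right.

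Of the secreted LGI ligands and their ADAM receptors, which anchor Kv1 complexes along axons and at synapses, Lgi2 was the one gene whose left arrays separated. Levels were 8.68, 8.83 and 8.65 in left deaf arrays, against 8.99, 9.17 and 8.88 in left control arrays. All 3 left deaf arrays lay below all 3 left controls, as they did for 5.70% of all genes. The 10 neuronal markers, all measured and none below the lower quartile, had a mean of 9.91 to 9.92 on left deaf arrays, against 9.94 to 10.03 on left control arrays, and of 9.98 to 10.02 on right deaf arrays, against 9.92 to 10.12 on right control arrays. Like Lgi2, this mean was lower on every left deaf array than on any left control or right deaf array. Within the list, Snap25, Syt1 and Rbfox3 were higher in left deaf than left control arrays (0.17, 0.036 and 0.0095). The other listed genes were lower, among them Gad1 (-0.23), Nefh (-0.20) and Gad2 (-0.0067). The mean of the myelin and oligodendrocyte markers also separated left deaf from left control arrays (9.88 to 9.95 against 9.98 to 10.03), but overlapped right deaf arrays (9.91 to 10.00). In this second list, Cldn11, Aspa and Mobp were higher in left deaf than left control arrays (0.098, 0.013 and 0.010). Its other measured genes were lower, from -0.042 (Mag) to -0.26 (Ugt8). The part of either list in the Lgi2 values was not tested. The difference was -0.29 (SE 0.092, 95% interval -0.50 to -0.093; limma unadjusted p = 0.00798), and it did not pass over all genes (adjusted p = 1.00). Levels were 8.96, 8.90 and 9.08 in right deaf arrays, against 8.96, 8.95 and 8.96 in right control arrays, a difference of 0.020 (SE 0.092; limma adjusted p = 1.00). The left deaf arrays also lay below the right deaf arrays (-0.26, SE 0.092; limma unadjusted p = 0.0159, adjusted p = 1.00; 0.0581 unadjusted without left deaf 3 and 0.0651 without right deaf 3), as for 4.58% of all genes. The interaction of side and deafness was -0.32 (SE 0.13; limma unadjusted p = 0.0332, adjusted p = 1.00). Its limma unadjusted p was 0.0565 to 0.0863 without any 1 of left deaf 1, left deaf 3, left control 2, right deaf 3 or right control 2.

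The other genes of this list had left differences closer to 0. Lgi1, a gene of inherited temporal lobe epilepsy whose product reduces Kv1 inactivation by Kcnab1, differed by -0.0098 (SE 0.094) on the left and 0.017 (SE 0.094) on the right. The receptor gene Adam22 differed by 0.092 and 0.086 (SE 0.088 each), and Adam23 by 0.031 and -0.057 (SE 0.082 each). On the right, the smallest p of this list belonged to Lgi3 (-0.14, SE 0.095; limma unadjusted p = 0.177).

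Kcne4 encodes a small membrane subunit that reduces Kv1 currents in cultured cells. Its signal was dim, between the lower quartile and the median of the array values on every array. Levels were 4.51, 4.99 and 4.41 in right deaf arrays, against 5.31, 4.84 and 5.15 in right control arrays, a difference of -0.46 (SE 0.18; limma unadjusted p = 0.0273, adjusted p = 1.00). Right deaf 2 lay above right control 2, so the groups overlapped. The mean of the cerebellar markers was also highest in right control arrays. It was 4.89, 4.92 and 4.94 on right deaf 1, 2 and 3, against 5.62, 5.25 and 6.08 on right control 1, 2 and 3. Among right control arrays both this mean and Kcne4 were lowest on right control 2. Their order differed otherwise, since the mean was highest on right control 3 (6.08) and Kcne4 on right control 1 (5.31). The part of these markers in the Kcne4 values, here and averaged over both sides, was not tested. With right deaf 1 left out the difference was -0.40 (limma unadjusted p = 0.0851), and with right deaf 3 left out -0.35 (0.110). With right control 1 left out it was -0.36 (limma unadjusted p = 0.103), and with right control 3 left out -0.44 (0.0664). Without right deaf 2 it was -0.64 (limma unadjusted p = 0.0041), and without right control 2 it was -0.59 (0.0116). On the left, levels were 4.34, 4.43 and 4.85 in deaf arrays, against 4.86, 4.94 and 4.60 in control arrays, a difference of -0.26 (SE 0.18; limma unadjusted p = 0.180), which was -0.16 without left deaf 1 and -0.42 without left deaf 3 (limma unadjusted p = 0.444 and 0.0468). Averaged over both sides it was -0.36 (SE 0.13; limma unadjusted p = 0.0166, adjusted p = 0.998).

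The 5 measured juxtaparanodal genes differed by -0.082 (Epb41l3) to 0.13 (Dlg4, which encodes PSD-95) on the left and by -0.10 (Dlg1) to 0.022 (Dlg4) on the right, and 0 of 5 passed an unadjusted p of 0.05. Dlg1, a scaffold gene, was the one whose right deaf arrays all lay below the right controls (3.84% of all genes; SE 0.080, limma unadjusted p = 0.213). The 6 genes of the initial segment, node and paranode, among them the anchor Ank3 and the adhesion molecules Nfasc and Cntnap1, differed by 0.0076 to 0.047 on the left and by -0.054 to 0.13 on the right, with 0 of 6 at an unadjusted p under 0.05. The third beta subunit gene, Kcnab3, differed by 0.043 (SE 0.069) on the left and 0.10 (SE 0.069; limma unadjusted p = 0.163) on the right, where all 3 deaf arrays lay above all 3 controls (3.64% of all genes). The dim family members Kcna7 and Kcna10 had SEs of 0.23 and 0.30, so their intervals, up to -0.81 to 0.51 for Kcna10 on the left, leave larger differences undetectable. Myelin and oligodendrocyte markers (11 of 12 measured), which accompany the axonal sites of these channels, averaged 9.88 to 9.95 in left deaf and 9.98 to 10.03 in left control arrays, and 9.91 to 10.00 in right deaf and 10.01 to 10.13 in right control arrays.

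**Figure D4:**
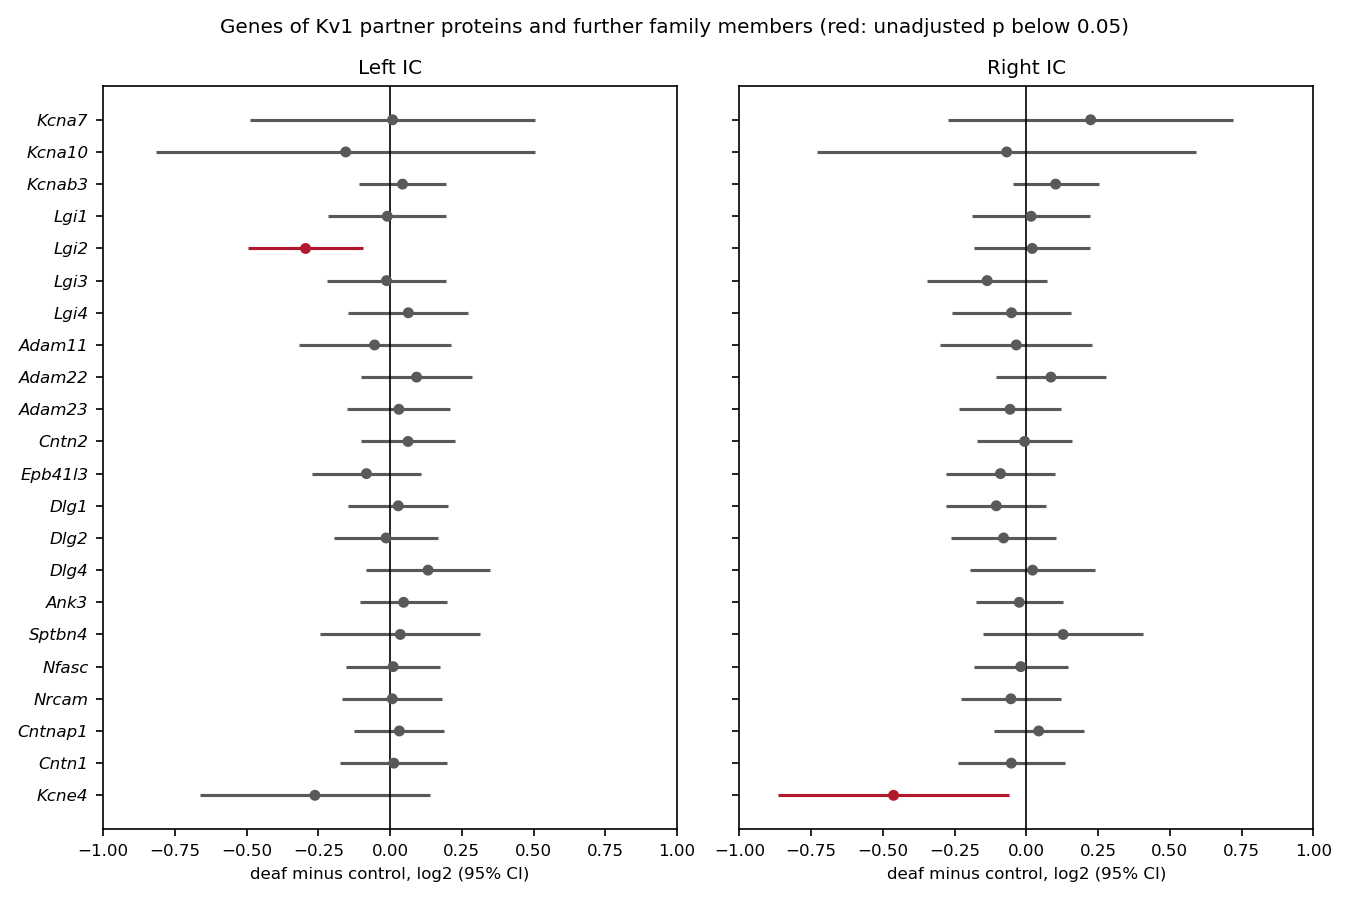
Deaf minus control difference (log2) with its 95% interval from limma for 22 genes of Kv1 partners and further family members, in the left and the right IC. Bars in red mark an unadjusted p below 0.05, which Lgi2 reached on the left and Kcne4 on the right; none passed after adjustment over all genes.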

How the data were processed

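Biotin-labelled cDNA from the RNA of 12 IC samples was read on 1-colour arrays with an Affymetrix labelling reagent, per the labels' protocols. The deposited values are log2 intensities; how the authors summarised and normalized them is not given in these sources. All arrays share nearly 1 distribution (largest difference at a rank 0.0995), and precision is limited by how many arrays there are.

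Of 29489 probes, 18511 had 1 gene symbol, 575 several and 10403 none. The brightest probe per gene was kept (18166 genes), with no filter on dim genes. Group means were fitted to all 12 arrays with limma 3.58.1 in R 4.3.3 (8 residual and 3.79 prior degrees of freedom), with two-sided tests, 6 contrasts and Benjamini-Hochberg adjustment over all genes at 0.05. Simulated data were used to test the fit. With 3 arrays against 3 an exact permutation test cannot go below p = 0.1. Levels of different probes were not compared as RNA amounts.

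All members were described. Partner genes at an unadjusted p under 0.05, or up to 2 per list, were named, with a few more chosen after their values were seen. The members and lists were chosen with earlier results of these data known. Alternatives are given in the closing section.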

Additional observations from a re-analysis of the deposited data

How the results depend on the processing

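Under every alternative run, 0 of the members measured passed limma's adjusted threshold in each of the 6 comparisons, and none reached an unadjusted p under 0.05. The alternatives were quantile normalization, median centring, a filter at the median level, which removes Kcna5 and Kcne4, the mean of a gene's probes, all probes, weights per array, a robust variance trend, fits of only the groups compared, the replicate block, a threshold of 0.1 and leaving out each of 12 arrays. A fit of only the groups compared could not be applied to the 2 contrasts that use all 4 groups. Of 1034 such differences of the members 76 changed sign, all of values that had not passed (main size at most 0.073). By more than 1 SE 2 moved, both of Kcna1 without right deaf 3 (-0.11 for right deaf minus control, 0.082 for left minus right in deaf rats). Many of the 1034 could not move, so these counts do not measure stability. The filter, the probe settings, the variance trend, the threshold, the groups-only fits and the replicate block leave a member's difference unchanged. So does leaving out an array of a group not compared. Lgi2 on the left stayed at an unadjusted p of at most 0.0415 (-0.36 to -0.22), but its interaction reached 0.0863 without left control 2.

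Over all genes limma called 0 in each comparison (607 to 900 at an unadjusted p under 0.05). The filter gave 1 gene, Vgf, for left deaf minus control and 1 for left minus right in deaf rats, the variance trend 1 and 2 (Vgf, and with it Or52a5b), and the threshold of 0.1 gave 1 for the interaction (Mirlet7f2). Leaving out 1 array gave 0 to 1 for left deaf minus control (Vgf, without left deaf 3) and 0 to 1 for both sides together (Clec2d2, without right control 3). The replicate block gave 1 for left minus right in controls and 1 for the interaction, both RGD1565183. The labels do not say that the array numbers mark a shared rat, so the numbers were not taken as pairs. Deviations of same-numbered arrays from their group means had r from -0.19 to 0.16. That range includes pairs of deaf and control arrays, which cannot share a rat. For left and right arrays of one arm, r ran from -0.056 to 0.15. Arrays of different numbers were not compared, so these values cannot decide whether rats were shared. The gene names in this paragraph were chosen after their values were seen.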
